A study of Mus musculus with 12 samples.

Results

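The genes described here code for the subunits of oxidative phosphorylation that are made from the nuclear genome. They were chosen by symbol, as Nduf genes of complex I, Sdh genes of complex II, Uqcr genes of complex III, Cox genes of complex IV and Atp5 genes of complex V, and by a mean of at least 5 TPM (length-corrected level, scaled to the same sum in every library) over the 12 libraries. Of 24736 genes in the table, 79 matched by symbol and 73 passed the limit. They comprised 34 genes of complex I, 4 of complex II, 8 of complex III, 12 of complex IV and 15 of complex V. Ndufa4 was counted with complex IV, where its protein sits despite its name. All 73 had enough counts to be tested. The mean level that chose them is described and not tested.

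The RNA came from 12 cultures of mouse embryonic stem cells differentiated for 72 h with bFGF at 10 ng/ml and LGK974 at 5 µM, which blocks WNT secretion, in 4 groups of 3. EpiLC (epiblast-like cells) and CEpiLC (caudal epiblast-like cells) were the wild-type control, a male HM1 TetON line that expresses the doxycycline-dependent activator from the Rosa26 locus. CEpiLC received in addition CHIR99021, a GSK3 inhibitor that activates WNT signalling, from day 2 to day 3. SOX2-OFF and SOX2-ON also received CHIR99021 over the same days and came from the SOX2 TetON line, derived from that control line by gene editing. In the edited line, endogenous Sox2 was ablated and a doxycycline-inducible Sox2 transgene sat in the Hprt locus. Resistant clones had been picked and screened, and how many were used for these cultures is not stated. SOX2-ON cultures had doxycycline at 1 µg/ml, which SOX2-OFF cultures lacked after its withdrawal, so that the drug and SOX2 differed together between them. Set against the wild-type groups, both differ in line as well, and cultures of the edited line that had no CHIR99021 were not analysed here. The lines had been propagated on fibroblast feeder cells, which were removed by adhesion before differentiation.

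Oxidative phosphorylation takes place in the inner mitochondrial membrane. Complexes I and II pass electrons from NADH and succinate to ubiquinone, complex III passes them to cytochrome c and complex IV to oxygen, while complexes I, III and IV pump protons that drive ATP synthase, complex V. Most subunits are made from nuclear genes, and a core set is made from the mitochondrial genome, whose transcripts were not analysed here. In the early embryo, pluripotent cells after implantation are known for relying more on glycolysis than naive cells do.

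Promoters of these genes are known for binding sites of the regulators NRF1, GABP and other ETS factors, YY1 and the estrogen-related receptors (ERR). RefSeq promoters (GRCm38.p6, 300 bases from 250 before to 50 after the start) were available for 63 of the 73 genes. The NRF1 letters GCGCANGCG, on either strand, were in 19 of the 63 promoters (30.2%) and in 7.03% of the promoters of all 27025 genes. The YY1 letters AAGATGGCG were in 7 (11.1%) against 1.64% of all, the ETS letters CCGGAAGT in 5 (7.94%) against 4.31%, and the ERR letters TCAAGGTCA in 2 (3.17%), Atp5g3 and Sdhd, against 0.466%. Such matches are descriptions and not evidence of binding. Of the 19 genes with NRF1 letters, 8 fell in SOX2-ON against SOX2-OFF in the test described below, as did 16 of the 44 without them and 14.1% of all genes tested. Both genes with the ERR letters fell, of which Atp5g3 lost its call without any 1 of 5 of the 6 libraries.

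Bases before the start are shown, 5′ to 3′ on the strand of the gene, with matches to those letters in capitals. The start is the 1 that the RefSeq promoter table gives for each gene. The first 3 are the genes with the largest called fall in SOX2-ON against SOX2-OFF that met 2 conditions. These were a single promoter entry (5 genes had 2) and the NRF1, ETS or ERR letters wholly before the start. Cox8a, which also holds ETS letters and fell by more than Uqcrh, did not meet both. No gene had the YY1 letters before the start and fell (Ndufa9 and Ndufs4, which hold them after the start, fell). The others are the Cox6b pair, alternative genes for 1 subunit of complex IV, of which 1 fell and the other rose. Stretches were ended where a neighbouring gene begins (Lrrc41 for Uqcrh, Fam71e2 for Cox6b2). All 5 genes are on the minus strand.
Cox6a1, NRF1, chr5:115348959-115349208: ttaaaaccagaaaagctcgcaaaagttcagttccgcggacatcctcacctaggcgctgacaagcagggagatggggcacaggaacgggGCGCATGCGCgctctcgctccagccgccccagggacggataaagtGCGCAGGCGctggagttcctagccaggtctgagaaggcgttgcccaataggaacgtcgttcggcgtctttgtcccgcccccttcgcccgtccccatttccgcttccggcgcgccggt
Uqcrh, ETS, chr4:116075071-116075268: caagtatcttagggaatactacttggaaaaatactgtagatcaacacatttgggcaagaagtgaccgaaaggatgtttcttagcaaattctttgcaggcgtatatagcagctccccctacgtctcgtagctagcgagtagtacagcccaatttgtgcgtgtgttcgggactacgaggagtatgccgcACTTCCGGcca
Atp5g3, ERR, chr2:73911327-73911576: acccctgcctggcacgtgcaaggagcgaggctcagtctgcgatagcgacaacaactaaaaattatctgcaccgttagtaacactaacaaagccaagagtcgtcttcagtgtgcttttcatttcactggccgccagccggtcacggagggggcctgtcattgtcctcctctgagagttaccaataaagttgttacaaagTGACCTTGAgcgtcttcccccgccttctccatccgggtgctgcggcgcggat
Cox6b1, no match, chr7:30626115-30626364: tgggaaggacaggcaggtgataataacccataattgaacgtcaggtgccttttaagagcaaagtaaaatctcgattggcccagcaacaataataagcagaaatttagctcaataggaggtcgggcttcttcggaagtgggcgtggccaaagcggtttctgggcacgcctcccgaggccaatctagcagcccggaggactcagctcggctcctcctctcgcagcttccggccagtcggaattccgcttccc
Cox6b2, no match, chr7:4753095-4753225: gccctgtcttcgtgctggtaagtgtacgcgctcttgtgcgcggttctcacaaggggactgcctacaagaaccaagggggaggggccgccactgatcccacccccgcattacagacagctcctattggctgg
In Cox6a1, the match GCGCATGCGC lay 162 to 153 bases before the start and is read on both strands, and GCGCAGGCG lay 117 to 109 bases before it. In Uqcrh the ETS letters lay 11 to 4 bases before the start, and in Atp5g3 the ERR letters 52 to 44 bases before it. Atp5g3 is also 1 of the 19 genes with NRF1 letters, which do not lie wholly within the stretch shown. The start of Atp5g3 in the table lies inside the RefSeq span of the gene (chr2:73908447-73912464), so that the stretch shown is not upstream of the whole gene. In the 2 Cox6b windows none of the 4 sets of letters was found.

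The libraries held 10408252 to 27337740 expected counts, and the ribosomal transcript Rn45s took 0.149 to 3.17% of them. Sox2, the manipulated gene, was at 173 to 215 TPM in SOX2-ON, 12.3 to 21.2 TPM in SOX2-OFF, 7.78 to 13.7 TPM in CEpiLC and 119 to 171 TPM in EpiLC. Gene-level values do not separate the transgene from the endogenous gene. Hprt, the locus of the transgene, was at 0.55 to 2.00 TPM in the wild-type groups and 13.0 to 23.3 TPM in the SOX2 TetON groups. In all 6 libraries of the SOX2 TetON line, expressed genes of chromosomes 6 and 8 were shifted upwards (medians of 0.53 to 0.57 and 0.55 to 0.60 on the log2 scale) and those of chromosome 11 downwards (-0.58 to -0.53), relative to the wild-type libraries. Of the genes described, Ndufa4, Ndufa5, Ndufa9 and Ndufb2 lie on chromosome 6, Ndufa13 and Ndufb7 on chromosome 8, and Atp5g1, Atp5h, Uqcr10 and Uqcrq on chromosome 11, and values across lines are given also for the other 63.

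Markers of the labelled cell types were as follows. Of 4 epiblast markers, Pou5f1 was at 705 TPM or more in every library, while Otx2, Fgf5 and Pou3f1 were highest in EpiLC, as Otx2 shows with 153 to 176 TPM there and 1.24 to 14.4 TPM elsewhere. The 4 caudal epiblast and primitive streak markers T, Cdx2, Nkx1-2 and Wnt3a summed to 1272 to 1404 TPM in CEpiLC, 887 to 910 TPM in SOX2-OFF and 1.33 to 2.02 TPM in EpiLC. Their sum was 220 to 266 TPM in SOX2-ON, where Wnt3a was at 0.71 to 1.14 TPM. The 6 feeder markers summed to 11.5 to 31.6 TPM over all libraries. The 6 extraembryonic endoderm markers summed to 38.6 to 116 TPM in SOX2-ON, 112 to 132 TPM in SOX2-OFF and at most 1.65 TPM in wild-type libraries, of which Cubn, Amn and Sox17 made up nearly all, while Ttr, Apoa1 and Afp stayed between 0 and 2.96 TPM. These markers move with the groups, and their part in the results below was not tested. In bulk samples, fewer cells of a type and less RNA per cell cannot be told apart.

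The complexes were transcribed at unequal levels. Summed TPM over the 73 genes was 21912 ± 318 (SD, n = 3) in SOX2-ON, 23585 ± 417 in SOX2-OFF, 24212 ± 273 in CEpiLC and 23524 ± 338 in EpiLC. The 3 SOX2-ON libraries, at 22267, 21651 and 21819 TPM, lay below each of the other 9, which were between 23148 and 24471 TPM. In EpiLC, complex V made up 39.0% of the sum, complex I 24.9%, complex IV 22.4%, complex III 10.8% and complex II 3.02%. The genes with the highest mean TPM were Atp5b, the catalytic beta subunit of ATP synthase (1577 TPM), Cox7c of complex IV (978 TPM) and Ndufa4 (886 TPM). Reads of Cox7c were shared with other sequences in all 12 libraries, so that its values are uncertain.

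**Figure D1:**
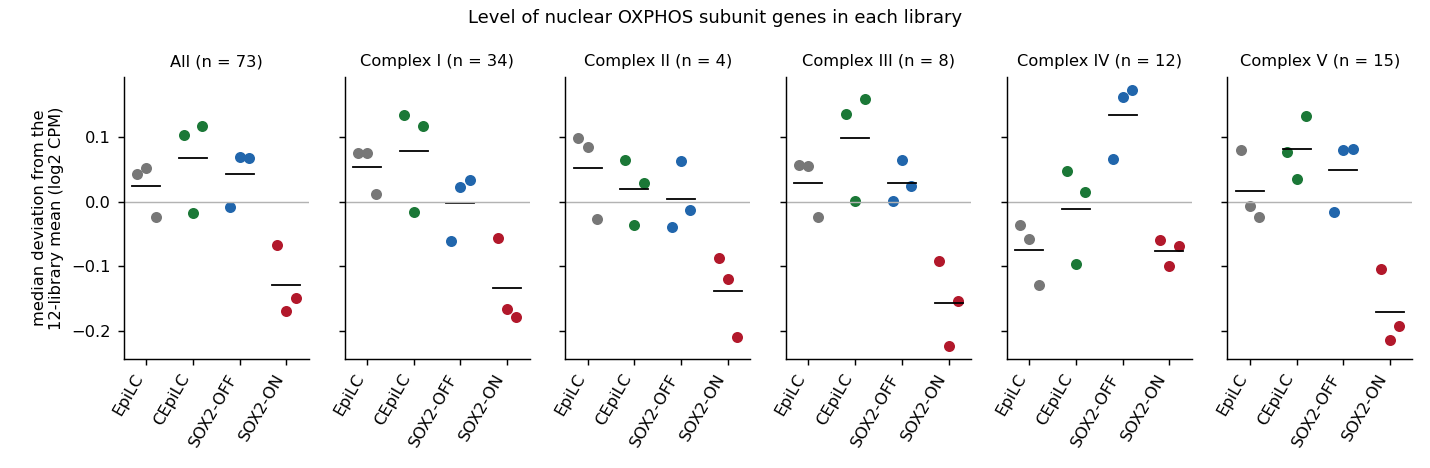
Median deviation of the genes from their own mean over 12 libraries (log2 CPM, vertical axis) in each library, for all 73 genes and for each complex; points are libraries, coloured by group, and lines are group means. Over all genes the 3 SOX2-ON libraries are at -0.07, -0.17 and -0.15, and the other 9 libraries at -0.02 or above.

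SOX2-ON against SOX2-OFF compares doxycycline and sustained SOX2 together with their withdrawal, under WNT activation within a line. The drug and SOX2 cannot be told apart in it, as no wild-type culture here had doxycycline. Of the 73 genes, 26 fell and 1 rose, and 46 did not pass the test. A gene is said to rise or fall where its p from edgeR (quasi-likelihood), adjusted by Benjamini-Hochberg for all genes tested, was 0.05 or less with 3 libraries a group. Among all 14196 genes tested, 14.1% fell and 14.8% rose. The median log2 fold change of the 73 genes was -0.18 (all genes -0.01), so that single changes were small, the largest called fall being 0.46 on the log2 scale. In 38 genes (52.1%) all 3 SOX2-ON libraries were below all 3 SOX2-OFF libraries by log2 CPM (counts scaled for library size with TMM factors), against 21.6% of all genes. By TPM this held for 30 genes (41.1%, against 16.6% of all genes), and the median log2 ratio of mean TPM was -0.12 over the 73 genes and 0.04 over all genes tested. Outside chromosomes 6, 8 and 11, 23 of 63 genes fell and 1 rose, with the same median of -0.18. By mean log2 CPM, SOX2-ON was the lowest of the 4 groups for 48 of the 73 genes (65.8%), which was the case for 24.0% of all genes. The count of calls depended on single libraries. Of the 26 falls, 9 kept their call in every alternative (Atp5f1, Atp5l, Atp5o, Cox6a1, Cox7a2, Cox8a, Ndufb11, Sdhd and Uqcrfs1), and so did the rise of Cox6b2, while the other 17 lost it in at least 1. The count was 13 without SOX2-OFF replicate 2, 16 without SOX2-OFF replicate 3 and 12 without SOX2-ON replicate 2, while the median stayed between -0.20 and -0.15 whichever library was left out.

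**Figure D2:**
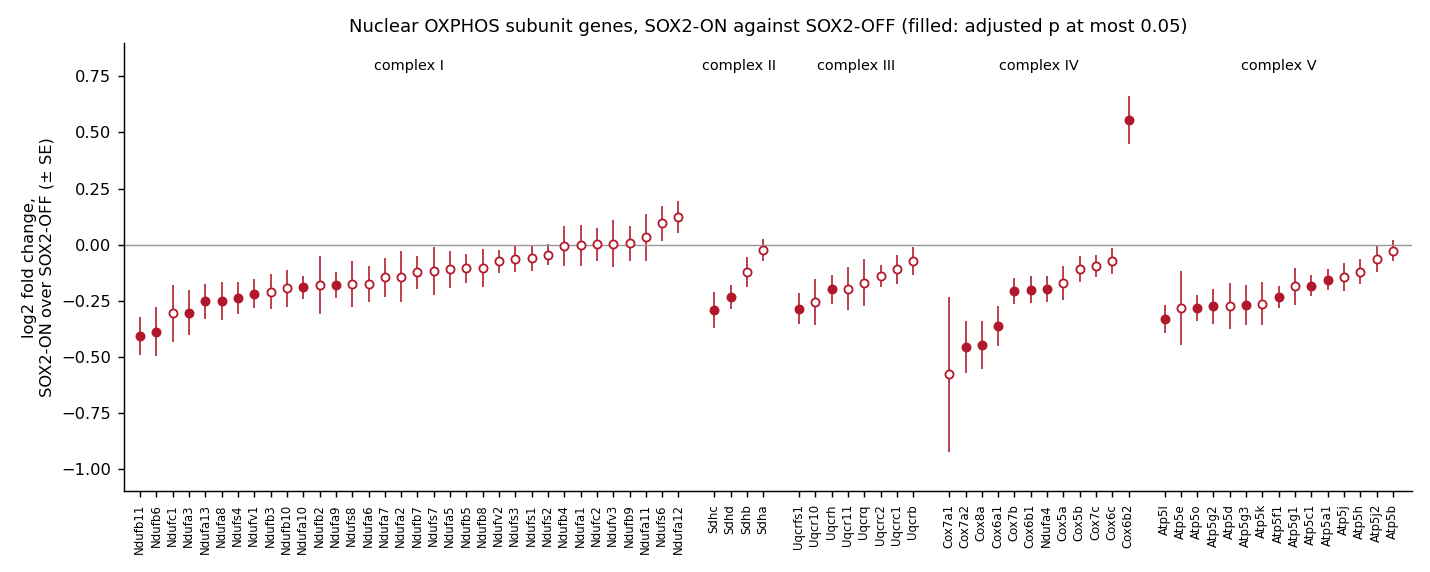
Log2 fold change of each of the 73 genes in SOX2-ON over SOX2-OFF (vertical axis, bars are SE), ordered within each complex; filled points passed the test. All called genes lie below 0 except Cox6b2 of complex IV, at 0.55, and the lowest called gene is Cox7a2, at -0.46.

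In complex I, which oxidises NADH, 9 of 34 genes fell in SOX2-ON against SOX2-OFF and none rose. The median was -0.13. Of all genes tested, 14.1% fell. Differences between the parts below were not tested. By part of the complex, 5 of 9 genes of the proximal membrane arm fell, 2 of 10 of the distal membrane arm, 2 of 10 of the NADH-oxidising module and 0 of 5 of the ubiquinone-binding module. In the order of these parts they were Ndufa3, Ndufa8, Ndufa9, Ndufa10 and Ndufa13, then Ndufb6 and Ndufb11, and then Ndufs4 and Ndufv1. Ndufb11 (chrX:20615326-20617619), a subunit of the distal membrane arm, read 135, 143 and 130 TPM in SOX2-OFF and 112, 109 and 100 TPM in SOX2-ON. The groups did not overlap, and the log2 fold change was -0.41 (SE 0.08, adjusted p = 0.00298). Ndufb11 also rose in CEpiLC (159, 156 and 150 TPM) against EpiLC (134, 117 and 112 TPM), by a log2 fold change of 0.36 (SE 0.08, adjusted p = 0.00384). Its lowest levels were thus those of SOX2-ON, and its highest those of CEpiLC.

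In complex II, succinate dehydrogenase, Sdhc and Sdhd fell in SOX2-ON against SOX2-OFF while Sdha and Sdhb did not pass the test. Sdhc, a membrane anchor (chr1:171129157-171150640), read 138, 155 and 143 TPM in SOX2-OFF and 128, 120 and 121 TPM in SOX2-ON (-0.29 on the log2 scale, SE 0.08, adjusted p = 0.0150). The groups did not overlap, but the call was lost without SOX2-OFF replicate 2 or SOX2-ON replicate 2 (log2 fold change between -0.34 and -0.24 over the alternatives). Sdhd, the other anchor (chr9:50596340-50603849), read 220, 226 and 226 TPM against 199, 197 and 199 TPM (-0.23, SE 0.05, adjusted p = 0.00597). The SOX2-OFF level of Sdhd was itself above that of CEpiLC (204, 188 and 189 TPM, log2 fold change 0.23, SE 0.05, adjusted p = 0.00351), and SOX2-ON did not differ from CEpiLC by more than the error (0.00, SE 0.05, adjusted p = 0.958). Sdhb, the iron-sulphur subunit (chr4:140961271-140979198), stood apart in EpiLC. It read 188, 196 and 195 TPM there and 123 to 159 TPM in all other libraries.

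In complex III, Uqcrfs1 and Uqcrh fell in SOX2-ON against SOX2-OFF and the log2 fold changes of all 8 genes were negative. Uqcrfs1, the Rieske iron-sulphur protein (chr13:30540312-30545316), read 201, 205 and 186 TPM in SOX2-OFF and 174, 174 and 156 TPM in SOX2-ON (-0.29 on the log2 scale, SE 0.07, adjusted p = 0.00783). EpiLC and CEpiLC were at 185 to 208 TPM, so that only SOX2-ON was apart. Uqcrh, the hinge protein that helps dock cytochrome c (chr4:116066965-116075070), with the ETS letters shown above, read 609, 626 and 619 TPM against 556, 584 and 548 TPM (-0.20, SE 0.07, adjusted p = 0.0348). Its call was lost without any 1 of 5 of the 6 libraries, all but SOX2-OFF replicate 1, with log2 fold changes between -0.23 and -0.17.

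In complex IV, cytochrome c oxidase, 6 of 12 genes fell in SOX2-ON against SOX2-OFF and 1 rose. All 3 values were lower in 10 of 12 by log2 CPM and in 6 of 12 by TPM, where the groups overlapped for Cox5b, Cox6b1, Cox6c, Cox7b and Cox7c. The falls were those of Cox7a2, Cox8a, Cox6a1, Cox7b, Cox6b1 and Ndufa4. Cox7a2 (chr9:79755241-79771422) had the largest called fall of the 73 genes. It read 227, 255 and 229 TPM in SOX2-OFF and 179, 178 and 181 TPM in SOX2-ON (-0.46 on the log2 scale, SE 0.12, adjusted p = 0.00964). Cox8a (chr19:7215158-7217616) read 547, 549 and 583 TPM against 466, 381 and 439 TPM (-0.45, SE 0.11, adjusted p = 0.00690), and Cox6a1 (chr5:115345652-115348958) 466, 474 and 477 TPM against 386, 339 and 426 TPM (-0.36, SE 0.09, adjusted p = 0.00842). In these 3 genes the groups did not overlap. SOX2-ON replicate 2 was the lowest of all libraries for Cox8a and Cox6a1. Ndufa4 read 1155, 1194 and 1171 TPM against 1053, 1037 and 1124 TPM (-0.20, SE 0.06, adjusted p = 0.0186). The calls of Cox6b1, Cox7b and Ndufa4 were each lost without SOX2-OFF replicate 2, SOX2-OFF replicate 3 or SOX2-ON replicate 2, and those of Cox6b1 and Cox7b also without SOX2-ON replicate 1, with log2 fold changes between -0.27 and -0.16 for the 3 genes.

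In complex V, ATP synthase, 7 of 15 genes fell in SOX2-ON against SOX2-OFF and the log2 fold changes of all 15, on TMM-scaled counts, were negative, although by mean TPM Atp5b and Atp5j2 were not lower. The falls were those of Atp5l, Atp5o, Atp5g2, Atp5g3, Atp5f1, Atp5c1 and Atp5a1, spread over the membrane part, the stalk, the c ring and the catalytic head. Atp5l, subunit g of the membrane part (chr9:44913248-44920742), read 629, 591 and 596 TPM in SOX2-OFF and 494, 526 and 489 TPM in SOX2-ON, with no overlap (log2 fold change -0.33, SE 0.06, adjusted p = 0.00124). Atp5b, the most abundant of the genes, did not pass the test, with SOX2-OFF at 1558, 1522 and 1510 TPM and SOX2-ON at 1594, 1511 and 1570 TPM. Its log2 fold change was -0.03 (SE 0.05, adjusted p = 0.720). Summed TPM of SOX2-ON over SOX2-OFF was, as log2 ratio, -0.06 in complex I, -0.11 in complex II, -0.11 in complex III, -0.12 in complex IV and -0.12 in complex V. As sums of CPM with TMM factors it was -0.12 in complex I, -0.17 in complex III and -0.20 in complex IV. Differences between complexes were not tested.

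**Figure D3:**
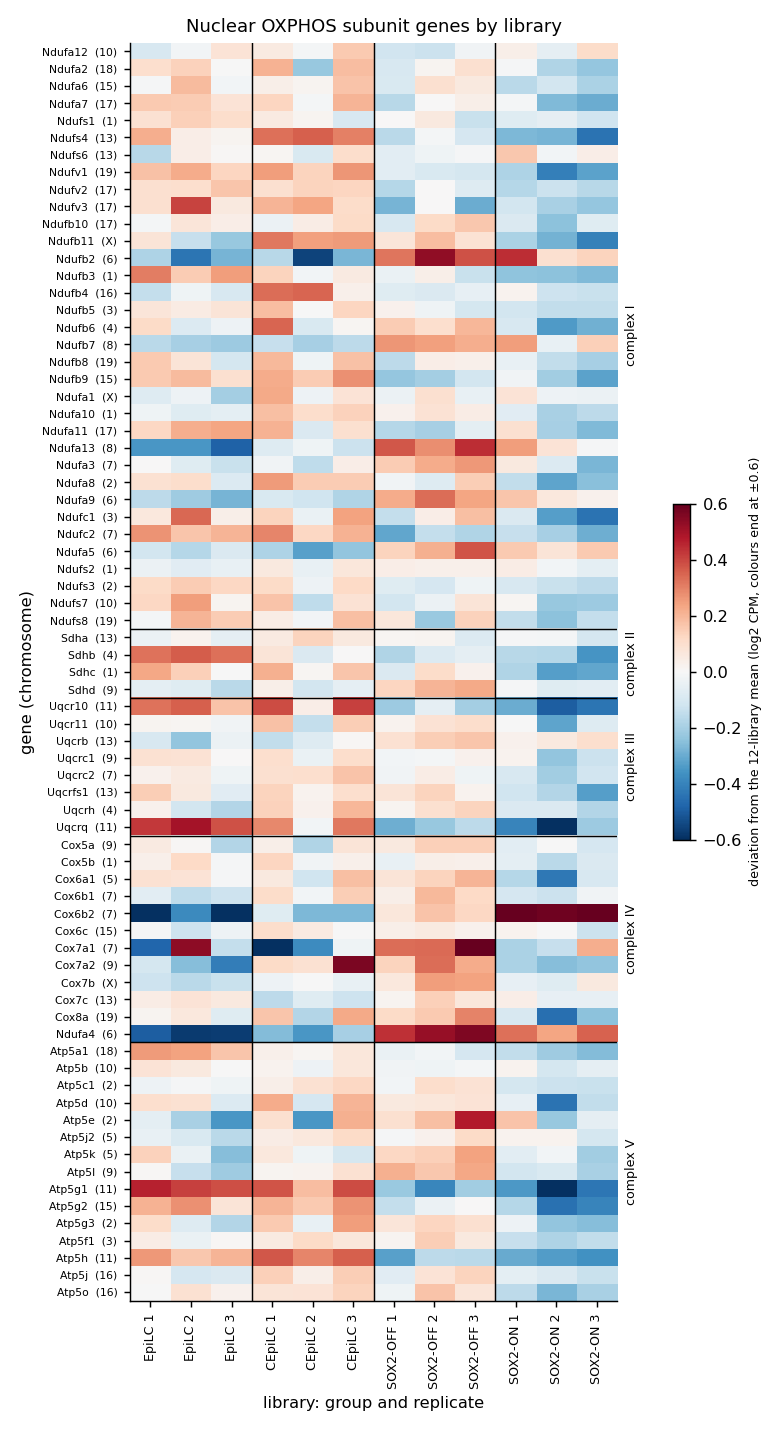
Deviation of each of the 73 genes from its mean over 12 libraries (colour, log2 CPM, ending at ±0.6), with genes in rows by complex (chromosome in brackets) and libraries in columns. The SOX2-ON columns are blue for most rows, the 4 genes of chromosome 11 are mostly red in both wild-type groups, and Cox6b2 is highest in SOX2-ON.

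Some subunits of complexes IV and V have alternative genes. Cox6b1 (chr7:30616971-30626114) and Cox6b2 (chr7:4751792-4753094) code for the common and the testis form of COX6B, a subunit on the outer face of complex IV. Cox6b2 levels were 149, 140 and 143 TPM in SOX2-ON, 89.1, 95.8 and 96.9 TPM in SOX2-OFF, 84.8, 74.2 and 66.9 TPM in CEpiLC and 55.2, 68.0 and 56.8 TPM in EpiLC. SOX2-ON lay above every other library, and SOX2-OFF above all wild-type libraries. The log2 fold change was 0.55 in SOX2-ON against SOX2-OFF (SE 0.11, adjusted p = 0.00179), 0.87 against CEpiLC (SE 0.11, adjusted p = 1.82e-05) and 1.26 against EpiLC (SE 0.11, adjusted p = 6.86e-07). Its rise in SOX2-OFF against CEpiLC, 0.32 (SE 0.11, adjusted p = 0.0300), and that in CEpiLC against EpiLC, 0.39 (SE 0.11, adjusted p = 0.0145), were less stable. The first was lost without CEpiLC replicate 2 or 3 or SOX2-OFF replicate 2 or 3 (0.27 to 0.41 over the alternatives), and the second without EpiLC replicate 1 or CEpiLC replicate 1 (0.30 to 0.50). Cox6b1 read 771, 838 and 761 TPM in SOX2-OFF and 688, 709 and 762 TPM in SOX2-ON, which overlapped (log2 fold change -0.20, SE 0.06, adjusted p = 0.0232). Cox6b2 thus made up 16.7% ± 1.00 (SD, n = 3) of the summed TPM of the pair in SOX2-ON, 10.6% ± 0.56 in SOX2-OFF, 8.65% ± 0.93 in CEpiLC and 7.88% ± 1.05 in EpiLC. The sum of the pair was 864 ± 36.5 TPM in SOX2-ON, 884 ± 43.3 TPM in SOX2-OFF, 870 ± 18.4 TPM in CEpiLC and 762 ± 12.4 TPM in EpiLC.

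Cox7a1, the heart and muscle form of COX7A (chr7:30184171-30186030), was the member with the lowest mean level. Its levels were 15.6, 15.2 and 20.7 TPM in SOX2-OFF, 5.66, 9.70 and 11.3 TPM in CEpiLC, 8.39, 18.3 and 11.4 TPM in EpiLC and 10.1, 11.2 and 14.6 TPM in SOX2-ON. SOX2-OFF was above CEpiLC without overlap (log2 fold change 1.08, SE 0.36, adjusted p = 0.0252), a call lost without CEpiLC replicate 1 (0.81) or SOX2-OFF replicate 3 (0.91). Of the genes for subunit c, which forms the ring that turns in ATP synthase, Atp5g2 (chr15:102662868-102671047) read 538, 464 and 481 TPM in SOX2-ON, 556, 586 and 582 TPM in SOX2-OFF and 702, 708 and 719 TPM in CEpiLC. It fell in SOX2-OFF against CEpiLC by 0.27 on the log2 scale (SE 0.08, adjusted p = 0.0103) and in SOX2-ON against SOX2-OFF by 0.28 (SE 0.08, adjusted p = 0.0160). The first of these calls was lost without SOX2-OFF replicate 1, and the second without SOX2-OFF replicate 2 or 3 or SOX2-ON replicate 2, with log2 fold changes between -0.32 and -0.23 and between -0.36 and -0.22. Atp5g3 read 922, 938 and 889 TPM in SOX2-OFF and 849, 767 and 757 TPM in SOX2-ON (-0.27, SE 0.09, adjusted p = 0.0352), and its call was lost without any 1 of 5 of the 6 libraries, all but SOX2-ON replicate 1 (-0.34 to -0.23). Atp5g1, on chromosome 11, was at 254 to 297 TPM in the wild-type groups and 146 to 186 TPM in both others, and did not pass the test in SOX2-ON against SOX2-OFF (-0.19, SE 0.08, adjusted p = 0.107). The shares of Atp5g1, Atp5g2 and Atp5g3 in their summed TPM were 11.1, 34.2 and 54.7% in SOX2-ON, beside 10.6, 34.5 and 55.0% in SOX2-OFF, each with an SD of 0.44 to 0.96 (n = 3), so that they differed by less than the spread. The 3 genes summed to 1446 ± 96.6 TPM in SOX2-ON, 1667 ± 18.3 TPM in SOX2-OFF and 1934 ± 90.2 TPM in CEpiLC. Cox6a2, Cox7b2, Cox8b and Cox8c, further alternative forms, were at most 1.62 TPM in any library.

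**Figure D4:**
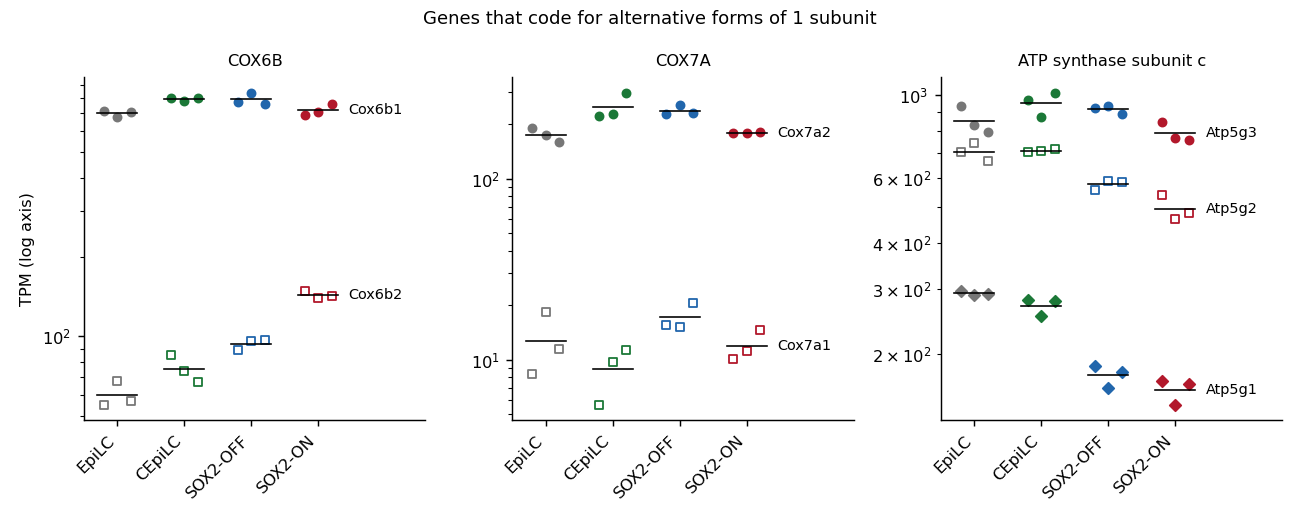
TPM (log axis) of alternative genes for COX6B, COX7A and subunit c of ATP synthase in each library; points are libraries, coloured by group, and lines are group means. Cox6b2 is highest in SOX2-ON (140 to 149 TPM), while Cox7a2, Atp5g2 and Atp5g3 are lower there than in SOX2-OFF.

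CEpiLC against EpiLC asks what WNT activation does in wild-type cells. Here 12 of the 73 genes rose and 3 fell, against 22.1 and 20.1% of all genes, and the median was 0.05 (all genes 0.01). Without EpiLC replicate 2 or EpiLC replicate 3 only 7 rose, and the median was between 0.02 and 0.09 whichever library was left out. The shares that rose (16.4%) and fell (4.11%) were both below those of all genes, and 58 genes did not pass the test. In complex IV, Cox7a2, Cox6b2, Ndufa4 and Cox6b1 rose and Cox7c fell. Cox7a2 read 190, 173 and 159 TPM in EpiLC and 222, 226 and 298 TPM in CEpiLC, without overlap (log2 fold change 0.52, SE 0.12, adjusted p = 0.00308). CEpiLC replicate 3 was the highest of all libraries. Sdhb fell by 0.34 on the log2 scale (SE 0.07, adjusted p = 0.00114), the largest fall. Atp5a1, the alpha subunit of ATP synthase, read 927, 938 and 900 TPM in EpiLC and 804, 805 and 814 TPM in CEpiLC (-0.18, SE 0.05, adjusted p = 0.00702). Uqcrh read 608, 560 and 548 TPM in EpiLC and 655, 638 and 668 TPM in CEpiLC (0.20, SE 0.06, adjusted p = 0.0224), a call lost without replicate 2 or 3 of EpiLC or replicate 1 or 3 of CEpiLC (0.16 to 0.25).

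SOX2-OFF against CEpiLC compares the edited line after withdrawal of doxycycline with wild type under WNT activation, across lines. Sox2 RNA was not lower in SOX2-OFF, at 12.3 to 21.2 TPM against 7.78 to 13.7 TPM (log2 fold change 0.65, SE 0.24, adjusted p = 0.0367), a call lost with limma-voom and without CEpiLC replicate 2 or 3 or SOX2-OFF replicate 1 or 2 (0.44 to 0.94). Of the 73 genes, 14 rose and 12 fell, against 23.6 and 24.9% of all genes, with a median of -0.04. With library size alone in place of TMM factors, 10 rose and 21 fell, with a median of -0.09. All 6 genes of chromosomes 6 and 8 rose and all 4 of chromosome 11 fell, with medians of 0.61, 0.42 and -0.50. Of the other 63 genes, 8 rose and 8 fell. In complex I outside those chromosomes, 7 of 29 genes fell (24.1%, near the share of all genes) and 1 rose, with a median of -0.14. In complex IV outside them none of 11 fell and 4 rose, with a median of 0.11. The difference between the complexes was not tested. The 7 were Ndufs4, Ndufv1, Ndufv2, Ndufv3, Ndufb4, Ndufb9 and Ndufc2, and the 4 were Cox6b2, Cox7a1, Cox7b and Cox7c, of which the first 2 lost their call without single libraries, as given above. The values of Cox7c are uncertain, as its reads were shared with other sequences in all 12 libraries. Ndufc2, a subunit of the membrane arm (chr7:97400003-97407800), read 236, 218 and 218 TPM in CEpiLC and 156, 172 and 162 TPM in SOX2-OFF (-0.42 on the log2 scale, SE 0.07, adjusted p = 0.000316). SOX2-ON, at 174, 174 and 163 TPM, was as low as SOX2-OFF, and EpiLC, at 218 to 232 TPM, as high as CEpiLC. The level of Ndufc2 thus followed the line. Ndufb2, on chromosome 6, had the largest change in complex I, from 94.7, 76.8 and 85.5 TPM to 134, 151 and 130 TPM (0.74, SE 0.13, adjusted p = 0.000477), and 0.20 with the chromosome shift removed.

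**Figure D5:**
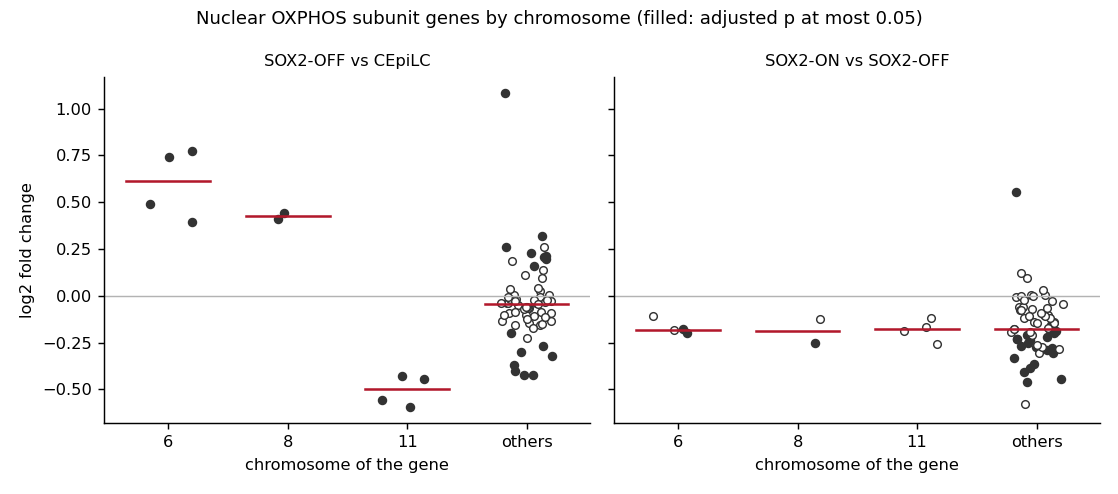
Log2 fold change of the 73 genes (vertical axis) in SOX2-OFF against CEpiLC, across lines, and in SOX2-ON against SOX2-OFF, within the line, by chromosome; filled points were called and red lines are medians. Across lines the medians are 0.61, 0.42 and -0.50 on chromosomes 6, 8 and 11 and -0.05 elsewhere, and within the line they are between -0.19 and -0.18 in all 4 classes.

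SOX2-ON against CEpiLC, again across lines, had the most calls. Of the 73 genes, 42 fell and 6 rose, against 28.6 and 27.9% of all genes, and the median was -0.21 (all genes -0.01). In 41 genes all 3 values were lower by log2 CPM, against 30.3% of all genes, and in 39 by TPM, against 27.8%. Outside chromosomes 6, 8 and 11, 38 of 63 genes fell and only Cox6b2 rose. The falls comprised 18 of 29 such genes in complex I, 2 of 4 in complex II, 4 of 6 in complex III, 5 of 11 in complex IV and 9 of 13 in complex V. Ndufs4, which completes the NADH-oxidising module of complex I (chr13:114287795-114388094), read 123, 128 and 119 TPM in CEpiLC and 88.4, 95.9 and 88.7 TPM in SOX2-OFF. Its 3 SOX2-ON values were at most 83.9 TPM. The groups did not overlap, and EpiLC lay between at 101 to 113 TPM. Its fall against CEpiLC was 0.66 on the log2 scale (SE 0.07, adjusted p = 5.33e-06), and that between SOX2-ON and SOX2-OFF 0.24 (SE 0.07, adjusted p = 0.0245), of which the latter call was lost without SOX2-OFF replicate 2 or 3 or SOX2-ON replicate 3 (-0.27 to -0.18). This comparison and the one above share the CEpiLC libraries.

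Against EpiLC, which lacked CHIR99021 as well, 17 of the 73 genes rose and 16 fell in SOX2-OFF (31.5 and 30.6% of all genes), and 8 rose and 33 fell in SOX2-ON (30.7 and 29.1% of all genes). Leaving out chromosomes 6, 8 and 11, there were 11 that rose and 12 that fell in SOX2-OFF, while 2 rose and 29 fell in SOX2-ON. The 2 that rose in SOX2-ON were Cox6b2 and Uqcrb, a subunit of complex III. Outside those chromosomes Sdhb had the largest fall in both, 0.45 (SE 0.07, adjusted p = 6.60e-05) and 0.57 (SE 0.07, adjusted p = 8.85e-06) on the log2 scale. The median over the 73 genes was 0.03 for SOX2-OFF and -0.16 for SOX2-ON, beside 0.01 for all genes in each.

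Subunits outside the symbol rule were given by a list of 10, of which 9 were tested. In SOX2-ON against SOX2-OFF, 3 fell and none rose, beside 14.1 and 14.8% of all genes tested. Ndufa4l2, a relative of Ndufa4 induced by hypoxia in many cells, read 7.59, 3.70 and 9.21 TPM in SOX2-OFF and 0.53, 0.71 and 0.72 TPM in SOX2-ON (-3.39 on the log2 scale, SE 0.55, adjusted p = 0.000519), and 0.37 to 2.72 TPM in the wild-type groups. Cox7a2l, which helps join complexes III and IV into supercomplexes, was at 245 to 258 TPM in CEpiLC and SOX2-OFF and at 186 to 204 TPM in EpiLC and SOX2-ON. It rose in CEpiLC against EpiLC by 0.38 (SE 0.05, adjusted p = 0.000108) and fell in SOX2-ON against SOX2-OFF by 0.40 on the log2 scale (SE 0.05, adjusted p = 0.000129). Atpif1, an inhibitor of ATP synthase, read 109, 119 and 118 TPM in SOX2-OFF and 104, 97.7 and 107 TPM in SOX2-ON (-0.22, SE 0.07, adjusted p = 0.0284), a call lost without SOX2-OFF replicate 2 or 3 or SOX2-ON replicate 2 (-0.27 to -0.18). Cyc1, cytochrome c1 of complex III, was at 260 to 272 TPM in EpiLC and 216 to 231 in CEpiLC (-0.24, SE 0.07, adjusted p = 0.0155, lost without replicate 2 of either group, -0.27 to -0.19), and at 169 to 207 TPM in the SOX2 TetON groups. Cycs, cytochrome c on chromosome 6, and Cox4i1, subunit 4 of complex IV on chromosome 8, were higher in both SOX2 TetON groups than in both wild-type groups. Against CEpiLC, Cycs rose by 0.81 on the log2 scale in SOX2-OFF (SE 0.05, adjusted p = 2.16e-07) and by 0.69 in SOX2-ON (SE 0.05, adjusted p = 3.26e-07). The median shift of chromosome 6 was 0.53 to 0.57. With the chromosome shift removed, the log2 fold change of Cox4i1 against CEpiLC was -0.05 in SOX2-OFF, which did not pass the test (adjusted p = 0.550), and -0.17 in SOX2-ON (adjusted p = 0.0325).

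Assembly factors and the tricarboxylic acid cycle, which feeds electrons into the chain, were described in the same way. Among all genes tested, 14.1% fell and 14.8% rose in SOX2-ON against SOX2-OFF, and 28.6% fell in SOX2-ON against CEpiLC. Of 47 assembly factors, 9 fell and 1, Ndufaf2, rose in SOX2-ON against SOX2-OFF, with a median of -0.12. The rise of Ndufaf2 (0.30) was lost in 10 alternatives, 5 of them without a single library (SOX2-OFF replicate 1, 2 or 3 or SOX2-ON replicate 1 or 2), with values between 0.24 and 0.35. Ndufaf4, an assembly factor of complex I (chromosome 4), read 24.9, 26.1 and 29.2 TPM in SOX2-ON and 46.8, 46.1 and 46.7 TPM in SOX2-OFF, beside 31.9, 45.4 and 40.8 TPM in CEpiLC and 20.5, 18.9 and 23.3 TPM in EpiLC. Its fall in SOX2-ON against SOX2-OFF was 0.85 on the log2 scale (SE 0.11, adjusted p = 9.08e-05) and its rise in CEpiLC against EpiLC 0.92 (SE 0.11, adjusted p = 3.11e-05). Of 14 genes of the cycle, 8 fell and none rose in SOX2-ON against SOX2-OFF, with a median of -0.19, and 12 fell in SOX2-ON against CEpiLC, among them all 11 outside chromosomes 6, 8 and 11. The largest fall within the line was that of Ogdh, of the 2-oxoglutarate dehydrogenase complex, from 49.9, 51.2 and 44.5 TPM to 39.0, 40.1 and 43.7 TPM (-0.30, SE 0.06, adjusted p = 0.00211). Cs, citrate synthase, rose by 0.28 in CEpiLC against EpiLC (SE 0.05, adjusted p = 0.000675) and fell by 0.26 on the log2 scale in SOX2-ON against SOX2-OFF (SE 0.05, adjusted p = 0.00151). Of 9 genes for the upkeep and transcription of mitochondrial DNA, 1 rose (Tfb1m, 0.41) and 1 fell (Polg, -0.26) in that comparison. Tfb1m lost its call without SOX2-OFF replicate 3 or SOX2-ON replicate 1 or 2 (0.33 to 0.50), and Polg without SOX2-OFF replicate 1 or 2 or SOX2-ON replicate 2 or 3 (-0.30 to -0.21).

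Among 10 regulators of these genes, 9 were tested, and Ppargc1a was at most 0.07 TPM. In SOX2-ON against SOX2-OFF only Esrrb rose and only Ppargc1b fell. Of all genes tested, 14.8% rose and 14.1% fell there, and in CEpiLC against EpiLC 22.1% rose and 20.1% fell. Esrrb, an estrogen-related receptor that is also a naive pluripotency factor, read 18.2, 15.0 and 16.7 TPM in SOX2-ON, 7.70, 5.91 and 2.18 TPM in SOX2-OFF and 0.96 to 1.68 TPM in the wild-type libraries (log2 fold change 1.59 in SOX2-ON against SOX2-OFF, SE 0.29, adjusted p = 0.00109). Ppargc1b, a coactivator of mitochondrial genes, read 3.88, 5.15 and 3.00 TPM in SOX2-OFF and 2.26, 2.15 and 1.96 TPM in SOX2-ON (-0.98, SE 0.24, adjusted p = 0.00746). In CEpiLC against EpiLC, Pprc1, Gabpa, Gabpb1, Yy1 and Esrrg fell and Esrra rose, with Yy1 at 110 to 113 TPM in EpiLC and 87.0 to 96.1 in CEpiLC (-0.28, SE 0.05, adjusted p = 0.000693). The calls of Esrra and Esrrg were lost without some single libraries (Esrra without EpiLC replicate 1 or 3 or CEpiLC replicate 1, 0.32 to 0.54, and Esrrg without EpiLC replicate 1 or 3 or CEpiLC replicate 1 or 2, -1.56 to -0.93). Nrf1 itself, on chromosome 6, was at 32.1 to 44.8 TPM in all libraries and did not pass the test in SOX2-ON against SOX2-OFF (0.02, SE 0.07, adjusted p = 0.859).

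At the limit of 5 TPM that chose the genes, those just inside were Cox7a1, with a mean of 12.7 TPM, and Ndufa11, with 20.9 TPM. Just outside were Atp5s, with 4.58 TPM, whose symbol matches but whose protein is no structural subunit of ATP synthase, and Ndufs5, with 4.52 TPM. The expected counts of Ndufs5 were not whole in any of the 12 libraries, and those of Ndufa7 and Atp5j2 in 3 libraries each, which marks reads shared with other sequences.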

How the data were processed

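Messenger RNA of 12 mouse cultures was sequenced as strand-specific, single-end reads of 76 bp. The authors trimmed reads with cutadapt 1.16, aligned them to mm10 with STAR 2.5.2a and quantified RefSeq genes with RSEM 1.3.0. The deposited table holds expected counts, estimated by RSEM and not whole where reads fit several genes, and TPM values that the authors left as RSEM scaled them. Replicates were not pooled. TPM is a share of each library, so a value depends on the other genes too.

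Expected counts were rounded and tested with edgeR 4.0.16 (quasi-likelihood test, TMM scaling, filterByExpr, R 4.3.3, limma 3.58.1) in 1 model of 12 samples without covariates, for 6 comparisons. Adjusted p-values are Benjamini-Hochberg over 14196 genes, and genes were called at 0.05 or less. The study calls the 3 replicates biological and its experiments independent, and p-values measure the spread between these samples. The study used DESeq2 1.16.1, and version 1.42.0 was run as an alternative. Standard errors were derived from the F statistic. TPM was used for levels and sums. Deviations and per-library medians used log2 CPM with a prior count of 2. Chromosome shifts are medians over genes averaging 4 log2 CPM or more. Of the genes, 99.6% had a position in RefSeq GRCm38.p6. The reads carry no molecular identifiers. No replicate pair was alike within sampling noise (chi-square per degree of freedom 7.54 to 42.6). The fits were tested on simulated data.

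The members and gene lists were chosen with earlier results of these data known. Full values are given for members with the largest called rise or fall per comparison outside chromosomes 6, 8 and 11, the largest called change per complex in the 4 comparisons among EpiLC and CEpiLC, SOX2-OFF and CEpiLC, SOX2-ON and CEpiLC, and SOX2-ON and SOX2-OFF, alternative subunit genes, the 3 members with the highest TPM, genes at the TPM limit, other subunits, regulators, and the largest called changes among assembly factors, mitochondrial DNA genes and the tricarboxylic acid cycle. The values of Sdhd, Uqcrh, Ndufs4 and Cs in SOX2-ON against SOX2-OFF were added after they were seen. Shared replicate numbers were checked by the correlation of deviations from group means. For EpiLC with CEpiLC, r was 0.120, 0.132 and 0.103, and as all were over the limit of 0.1 these numbers count as pairs, with no support from the labels. In each of the other 5 comparisons at least 1 r was under 0.1, although for CEpiLC with SOX2-OFF and with SOX2-ON the others were 0.163 to 0.201.

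The alternatives were RLE scaling, library size alone, no filter, 5 CPM in 3 samples, DESeq2, limma-voom, only the 6 libraries compared, a replicate block, the chromosome shift removed by offsets, only the 63 members outside chromosomes 6, 8 and 11, only members of at least 20 TPM, CPM sums, and each replicate left out. Members with whole counts throughout, TPM sums without Rn45s and TPM in place of log2 CPM for groups without overlap were added after seeing the data.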

Additional observations from a re-analysis of the deposited data

How the results depend on the processing

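The medians over the 73 genes kept within the spread between libraries in every alternative. Leaving out each replicate in turn gave counts of called genes of 10 to 16 for CEpiLC against EpiLC (main 15), 22 to 26 for SOX2-OFF against CEpiLC (main 26), 34 to 52 for SOX2-ON against CEpiLC (main 48), 12 to 26 for SOX2-ON against SOX2-OFF (main 27), 28 to 34 for SOX2-OFF against EpiLC (main 33) and 30 to 44 for SOX2-ON against EpiLC (main 41). With the chromosome shift removed, SOX2-OFF against CEpiLC gave 17 calls, and 16 outside chromosomes 6, 8 and 11. With the replicate block the counts were 15, 27, 51, 30, 35 and 44 in the order CEpiLC against EpiLC, SOX2-OFF and SOX2-ON against CEpiLC, SOX2-ON against SOX2-OFF, SOX2-OFF and SOX2-ON against EpiLC, so that it moved none by over 1.5 times. As sums of CPM with TMM factors in place of TPM, the log2 ratio of CEpiLC over EpiLC was 0.0105 in complex II (TPM -0.0498), 0.094 in complex IV (TPM 0.0606) and -0.014 in complex V (TPM 0.0365), so that its direction turned in complexes II and V, and that of SOX2-ON over SOX2-OFF was -0.12 in complex I, -0.17 in complex III and -0.20 in complex IV. Outside chromosomes 6, 8 and 11 the ratio of CEpiLC over EpiLC in complex IV was 0.0331. Only 109 of the called differences of members were followed gene by gene. Of these, 52 kept their call in every alternative, 45 lost it in at least 1 and 12 changed sign in at least 1. The list of sign changes is thus not complete. In SOX2-ON against CEpiLC, 6 of the 73 genes rose in the main fit and 1 with the chromosome shift removed. All 12 sign changes came with the chromosome shift removed, as did those of Cox4i1 in 2 comparisons and Nrf1 in 4, which are not among the 73. Log2 fold changes then became, against CEpiLC in SOX2-OFF, -0.14 for Ndufa13, -0.0492 for Ndufa5, -0.17 for Ndufb7, 0.10 for Uqcr10, 0.11 for Uqcrq, -0.0472 for Cox4i1 and -0.23 for Nrf1, and in SOX2-ON -0.17 for Cox4i1 and -0.23 for Nrf1. Against EpiLC they became, in SOX2-OFF, 0.12 for Atp5h, -0.0571 for Ndufa9, -0.15 for Ndufb7, 0.10 for Uqcr10 and -0.35 for Nrf1, and in SOX2-ON 0.0135 for Atp5h, -0.0719 for Ndufa13, -0.0211 for Ndufb2 and -0.35 for Nrf1. By construction this alternative takes out the shift of chromosomes 6, 8 and 11. An adjusted p that DESeq2 gave as NA was left out.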
